A study of Arabidopsis thaliana with 30 samples.

Results

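Seeds homozygous for the lec2-1 mutation were set against wild-type WS seeds of Arabidopsis thaliana at 12 days after flowering (DAF), on 3 arrays of each group, 6 of the 30 arrays of the series. The arrays were chosen by their titles, and the change of all 22746 probe sets other than controls was measured, of which 13436 were paired with 1 gene, 13286 genes in all. LEC2 is a B3-domain transcription factor of the embryo and, with LEC1, FUS3 and ABI3, one of the master regulators of seed maturation. The comparison asks which seed transcripts differ in level without normal LEC2 function at this age.

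The groups used here were lec2-1 at 12 DAF, lec2-1 at 8 DAF, lec1-1 at 12 DAF, lec1-1 at 8 DAF, WS at 12 DAF and WS at 8 DAF, with 3 arrays each, 18 arrays in the WS background. The 3 arrays of a group are described as biological replicates, from separate batches of plants. The mutant plants were homozygous and carried no transgene or added treatment in the labels. All plants were grown in 16 h of light and 8 h of dark at 22 °C, and whole seeds were dissected from the fruits (siliques). A whole seed holds the embryo, the endosperm that nourishes it and the maternal seed coat, which has the mother's genotype. In such bulk samples fewer cells of a type and less RNA per cell cannot be told apart.

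During maturation the embryo stops building tissues, fills with storage globulins and oil, and then makes protective late embryogenesis abundant (LEA) proteins before it dries. Young Arabidopsis embryos are green and express photosynthesis genes, which are switched down as the seed matures. ER bodies, compartments of the endoplasmic reticulum filled with a β-glucosidase, are known from seedlings and roots rather than from seeds.

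Replicate arrays of the compared groups correlated at r of 0.9927 to 0.9947 over probe sets, which are not independent replicates, and the median SD over probe sets was 0.11 in lec2-1 and 0.12 in WS on the log2 scale. With 3 arrays a group, precision is limited by that number. Array medians were 4.54 to 4.58 in lec2-1 and 4.30 to 4.34 in WS. For the actin control probe sets, which report on RNA integrity, the 3' signal exceeded the 5' signal by 0.356 ± 0.082 in lec2-1 and by 0.111 ± 0.063 in WS at 12 DAF (log2, SD, n = 3 each), and by 0.973 ± 0.063 in lec2-1 and 0.853 ± 0.101 in WS at 8 DAF. The GAPDH difference at 12 DAF was 0.142 ± 0.210 in lec2-1 and 0.336 ± 0.197 in WS, and the part of either control in the results was not tested. No probe set was paired with LEC2, LEC1, FUS3, ABI3 or L1L alone in the annotation used, so these genes were not analysed here and the genotype labels were not checked against the mutated gene.

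A call needed 2 conditions, a 2-fold or larger change and an adjusted p under 0.05, and "rose" or "fell" is used of calls alone. Levels are log2 GCRMA signals. The value after a change is its SE from the fit, and that after a level is the SD over 3 arrays. Adjusted p-values are from limma with Benjamini-Hochberg adjustment over all probe sets tested. Where the lower group's mean lay under 3, near the array minima of 1.66 to 1.75 in these 6 arrays, the printed fitted change is a lower bound in size. The genes to name were chosen by fitted change, which includes such genes, but their order is not read as a ranking. Medians of lists take these genes at their fitted change. The lists were chosen with earlier results of these data known, so their counts describe the members and are not tests of a group. Probe sets of close relatives may share signal, and that was not tested.

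At 12 DAF, 1795 probe sets were called, or 7.89% of those tested. In lec2-1 seeds 1433 were higher (6.30%) and 362 were lower (1.59%). The rises were also larger in size, with a median of 1.75 log2 units among the higher and −1.19 among the lower. Of the higher, 179 changed by at least 4 log2 units, and of the lower 5 did. The median of all probe sets was −0.08. Arrays of the groups did not overlap for 60.2% of probe sets, and 46.3% lay lower in all lec2-1 arrays, with a share of 78.6% among the 5687 probe sets of weakest signal, where the median change was −0.06. Non-overlap alone is therefore common here and is not read as a result. With 1 probe set per gene, 852 of 13286 genes were called (6.41%). Of these 677 were higher (5.10%) and 175 were lower (1.32%), and the shares of higher genes were 4.71% to 5.27% on the 5 chromosomes.

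**Figure D1:**
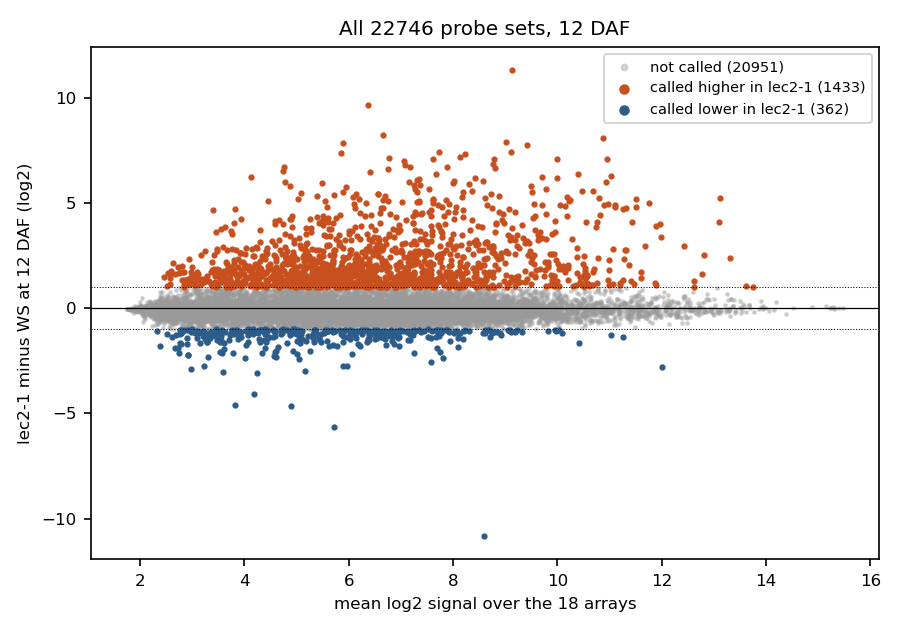
Change of each of the 22746 probe sets at 12 DAF (lec2-1 minus WS, log2, vertical axis) against its mean log2 signal over the 18 arrays of the WS background (horizontal axis). Orange points were called higher in lec2-1 (1433), blue points lower (362), grey points were not called, and dotted lines mark 2-fold. High points are many and low ones few, with 1 point near −11.

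Most measured photosynthesis genes rose, but only a part of the planned ones was measured. The measured part was 9 of 90 genes for the photosystems and electron transport, 3 of 18 for the Calvin cycle and 8 of 30 for chlorophyll synthesis. Of 9 measured genes of the photosystems and electron transport, 7 rose in lec2-1 seeds and 0 fell, where 5.10% of all genes rose. Their median change was 4.74, against −0.08 over all genes. PSBW (AT2G30570), a small subunit of photosystem II, had 10.94, 10.61 and 10.88 on the lec2-1 arrays, against 4.92, 5.86 and 6.18 on the WS arrays. The groups lay far apart, and the change was 5.16 ± 0.22 (adjusted p = 4.6e-10). LHCB4.1 (AT5G01530), a minor antenna protein of photosystem II, had 11.32, 11.12 and 11.53 in lec2-1, against 6.11, 6.73 and 6.37 in WS. Its change was 4.92 ± 0.16, with no overlap between the groups. Similar rises were measured for PSAN (AT5G64040) of photosystem I at 4.96 ± 0.17, the ATP synthase subunit gene ATPC1 (AT4G04640) at 4.93 ± 0.16, LHCB4.2 (AT3G08940) at 4.74 ± 0.23 and PSAE-1 (AT4G28750) at 4.70 ± 0.13. PSBY (AT1G67740) rose by 2.04 ± 0.08.

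The remaining 2 members of this list were not called. LHCB4.3 (AT2G40100), a paralog of LHCB4.1 and LHCB4.2, had 9.38, 9.09 and 9.09 in lec2-1, against 9.40, 9.72 and 9.32 in WS, a change of −0.29 ± 0.13. Its groups overlapped. PGRL1B (AT4G11960), which acts in cyclic electron flow, had a change of 0.68 ± 0.15.

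All 3 measured Calvin cycle genes rose, where 5.10% of all genes did. RCA (AT2G39730), the activase of the carbon-fixing enzyme Rubisco, averaged 10.38 in lec2-1 and 6.75 in WS, a change of 3.63 ± 0.17. PRK (AT1G32060), phosphoribulokinase, changed by 2.74 ± 0.17, and SBPASE (AT3G55800), a phosphatase that regenerates the carbon acceptor, by 2.15 ± 0.11.

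Of 8 genes of chlorophyll synthesis 7 rose, with a median of 1.90, where 5.10% of all genes rose. PORB (AT4G27440), a light-dependent protochlorophyllide reductase, had 10.33, 9.68 and 10.72 in lec2-1, against 2.31, 3.60 and 2.46 in WS. Every lec2-1 array lay far above every WS array, and the change of 7.45 ± 0.34 is read as a lower bound (adjusted p = 7.5e-10). CHLM (AT4G25080), a methyltransferase of the pathway, rose by 3.89 ± 0.21, CHLI2 (AT5G45930), a magnesium chelatase subunit, by 2.09 ± 0.30 and the decarboxylase genes HEME2 (AT2G40490) and HEME1 (AT3G14930) by 2.06 ± 0.16 and 1.73 ± 0.13. GSA1 (AT5G63570) and HEMB1 (AT1G69740), of the early steps, rose by 1.32 ± 0.17 and 1.12 ± 0.15. The glycine cleavage H protein gene AT1G32470, of photorespiration, is in no list and rose by 6.04 ± 0.14, with 9.55 in lec2-1 against 3.51 in WS.

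**Figure D2:**
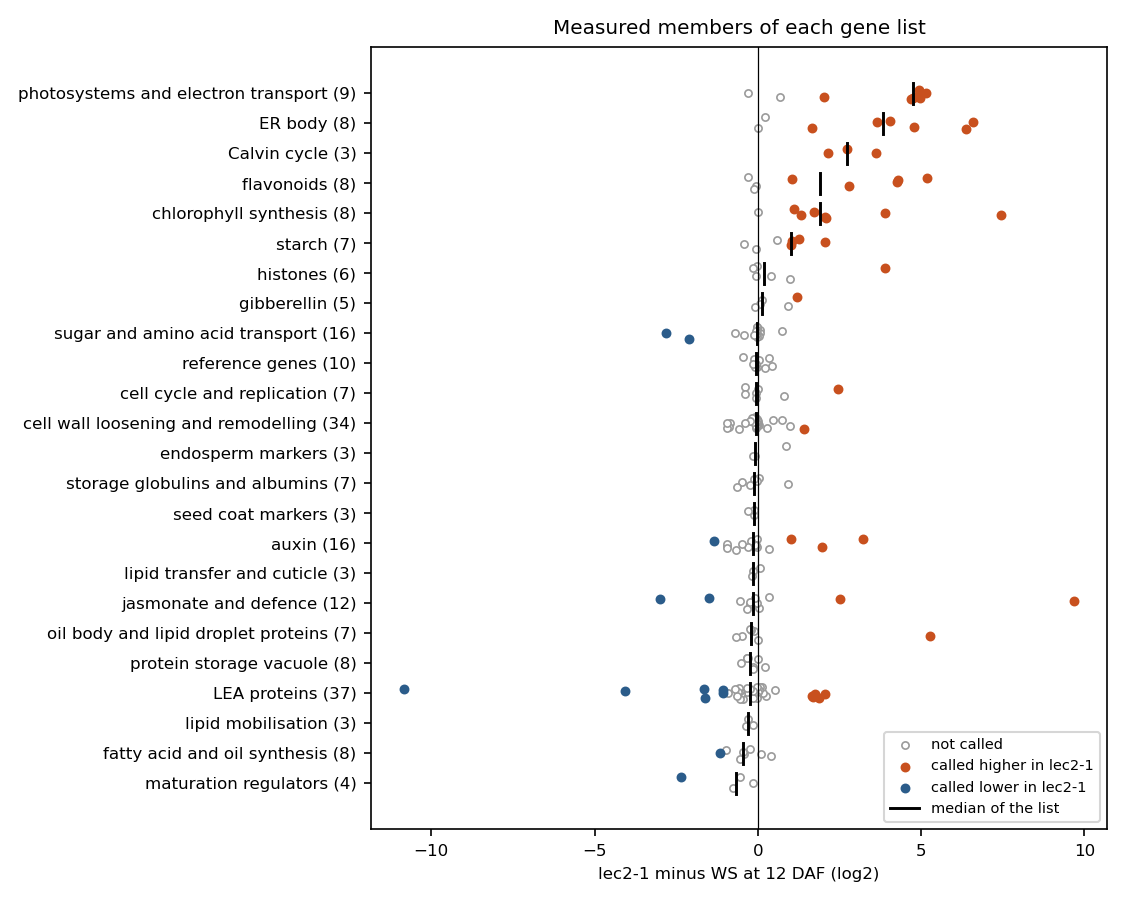
Change at 12 DAF (lec2-1 minus WS, log2) of each measured member of the lists with at least 3 measured genes, whose number is in brackets. Orange points were called higher, blue points lower, open points were not called, and the bar is the list's median. Most photosynthesis, ER body and flavonoid members lie to the right. Storage, oil body and vacuole members lie near 0, except 1 oil body member at 5.28.

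Most measured genes of the ER body were also high. Of 8 measured members, out of 19 planned, 6 rose and 0 fell, where 5.10% of all genes rose. Their median was 3.84. PYK10 (AT3G09260), which encodes the β-glucosidase most abundant in that compartment, had 9.21, 8.44 and 8.95 in lec2-1, against 2.47, 2.44 and 2.53 in WS. The WS arrays lay near the bottom of the scale, and the change of 6.39 ± 0.16 is a lower bound (adjusted p = 1.6e-12). NAI2 (AT3G15950), needed to form ER bodies, had 8.93, 8.62 and 8.96 in lec2-1, against 2.10, 2.10 and 2.49 in WS, with the change of 6.61 ± 0.21 again a lower bound. The jacalin-related lectin genes JAL34 (AT3G16460), JAL22 (AT2G39310) and JAL23 (AT2G39330) rose by 4.78 ± 0.20, 4.04 ± 0.25 and 3.64 ± 0.14, and those of JAL34 and JAL23 are lower bounds. NAI1 (AT2G22770), the bHLH factor that controls these genes, averaged 5.32 in lec2-1 and 3.65 in WS, a change of 1.67 ± 0.31 (adjusted p = 0.0010). BGLU19 (AT3G21370), a β-glucosidase relative, was not called and averaged 13.83 in lec2-1 and 13.60 in WS. JAL33 (AT3G16450) lay between 2.68 and 2.75 on all 6 arrays. AT1G52000, a jacalin-related lectin gene outside the list, rose by 6.03 ± 0.29, a lower bound.

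Of 8 measured flavonoid genes, out of 26 planned, 5 rose, with a median of 1.92, where 5.10% of all genes rose. DFR (AT5G42800), dihydroflavonol reductase of the anthocyanin and tannin branch, had 8.99, 9.37 and 9.54 in lec2-1, against 4.36, 4.30 and 3.71 in WS. Its change was 5.18 ± 0.26, with the groups well apart. The other risen members act late in anthocyanin synthesis or glycosylate flavonoids. UF3GT (AT5G54060), which decorates anthocyanins, rose by 4.28 ± 0.39, AT4G14090, an anthocyanin glucosyltransferase, by 4.27 ± 0.21 and AT5MAT (AT3G29590), an anthocyanin malonyltransferase, by 2.80 ± 0.22, of which the last 2 are lower bounds. UGT78D2 (AT5G17050) rose by 1.04 ± 0.24, and fell short of the 2-fold limit without lec2-1 replicate 3 (0.95) or WS replicate 2 (0.97). BAN (AT1G61720), the reductase of seed coat tannin synthesis, averaged 2.63 in lec2-1 and 2.76 in WS and was not called.

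Of 7 measured starch genes, out of 45 planned, 4 rose and 0 fell, with a median of 1.03, where 5.10% of all genes rose. APL3 (AT4G39210), a large subunit of the enzyme that makes ADP-glucose, rose by 2.07 ± 0.33, DPE1 (AT5G64860), which acts in starch breakdown, by 1.27 ± 0.13. APL4 (AT2G21590) and PWD (AT5G26570) lay near the 2-fold limit at 1.04 ± 0.25 and 1.03 ± 0.10. APL4 was not called without WS replicate 1 (0.80), and PWD (AT5G26570) was not called without lec2-1 replicate 1 (0.99) or WS replicate 3 (0.90).

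Of 15 planned storage protein genes 7 were measured. None of the 7 was called, where 6.41% of all genes were, so that 0 of 7 is near that share. All 7 measured storage globulin genes lay within 2-fold of WS, with changes of −0.63 to 0.94 and a median of −0.11. PAP85 (AT3G22640), a vicilin-like globulin, had 14.46, 14.51 and 14.48 in lec2-1, against 14.47, 14.45 and 14.46 in WS. The groups overlapped, and the change was 0.03 ± 0.06. AT1G03890, of the cruciferin family, averaged 14.27 in lec2-1 and 14.39 in WS, a change of −0.11 ± 0.10. Globulin genes AT2G28490 and AT4G36700 changed by −0.24 ± 0.11 and −0.47 ± 0.09, and AT2G18540 by −0.63 ± 0.21. AT1G07750 had the highest change, 0.94 ± 0.14, which passed 2-fold without lec2-1 replicate 1 (1.01) or WS replicate 2 (1.03). Signals above 14 stand near the array maxima of 15.54 to 15.61, and a compression of changes there was not tested.

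Of 7 measured oil body and lipid droplet genes 1 rose and 0 fell, with a median of −0.22, where 5.10% of all genes rose. OLEO3 (AT5G51210) and AT3G01570, which encode oleosins that coat oil bodies, changed by −0.10 ± 0.09 and 0.00 ± 0.11, and the oleosin gene AT3G18570 by −0.66 ± 0.12. The 1 risen member was AT2G47780, of the small rubber particle family of lipid droplet proteins. It had 7.57, 8.18 and 7.91 in lec2-1, against 2.61, 2.47 and 2.74 in WS. Its change of 5.28 ± 0.21 is a lower bound.

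Of 8 measured genes of fatty acid and oil synthesis, out of 41 planned, 1 fell, with a median of −0.44, where 1.32% of all genes fell. FaTA (AT3G25110), an acyl-ACP thioesterase that ends fatty acid synthesis in the plastid, had 7.88, 8.02 and 8.17 in lec2-1, against 9.03, 9.20 and 9.32 in WS. The groups did not overlap and the change was −1.16 ± 0.16 (adjusted p = 8.5e-05). AT5G16240, an acyl-ACP desaturase gene, changed by −0.98 ± 0.11, just within 2-fold. It was called after quantile normalization (−1.02) and without lec2-1 replicate 1 (−1.04) or WS replicate 3 (−1.03). None of 8 genes of the protein storage vacuole was called, with a median of −0.23, where 6.41% of all genes were called, so that 0 of 8 is near that share. Among them BETA-VPE (AT1G62710), which cuts storage proteins, changed by −0.30 ± 0.10, and the aspartic protease genes AT1G62290 and APA1 (AT1G11910) by −0.16 ± 0.05 and −0.16 ± 0.07.

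LEA genes moved in both directions. Of 37 measured members 5 rose, 6 fell and 26 were not called, with a median of −0.25. Over all genes 5.10% rose and 1.32% fell. AT3G17520 had 2.39, 2.28 and 2.32 in lec2-1, against 13.32, 13.15 and 12.98 in WS. The change of −10.82 ± 0.13 (adjusted p = 4.3e-15) is a lower bound in size. M10 (AT2G41280) had 3.02, 4.22 and 3.28 in lec2-1, against 7.92, 8.57 and 6.23 in WS. The WS arrays were spread over more than 2 log2 units, all above lec2-1, and the change was −4.07 ± 0.49 (adjusted p = 2.5e-05). AT3G22490 and M17 (AT2G41260) fell by 1.64 ± 0.27 and 1.61 ± 0.26, both lower bounds in size. COR47 (AT1G20440), a dehydrin, and AT3G53040 both had changes of −1.07, with SEs of 0.27 and 0.30, the arrays of AT3G53040 overlapped, and both calls were lost with the 6 compared arrays alone (adjusted p = 0.089 and 0.10). Both were also lost without lec2-1 replicate 3 (−0.96 for COR47 and −0.88 for AT3G53040) or WS replicate 1 (−0.92 for COR47 and −0.78 for AT3G53040), and COR47 without WS replicate 2 (−0.84).

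The LEA genes that rose were DI21 (AT4G15910) at 2.05 ± 0.15, COR15A (AT2G42540) at 1.88 ± 0.43, AT1G54410 at 1.75 ± 0.13, COR15B (AT2G42530) at 1.68 ± 0.19 and AT2G44060 at 1.65 ± 0.14, of which that of COR15A is a lower bound. COR15A and COR15B encode cold-regulated proteins of the chloroplast. COR15A had 4.87, 3.35 and 4.91 in lec2-1 and 2.49, 2.49 and 2.50 in WS, so that 1 lec2-1 array lay nearer to WS than the others. AT3G15670 and LEA (AT2G21490) changed by 0.04 ± 0.11 and −0.02 ± 0.18.

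Of 4 measured maturation and embryo regulators 1 fell, with a median of −0.66, where 1.32% of all genes fell. BBM (AT5G17430), an AP2-domain factor that promotes embryo formation, had 3.45, 4.12 and 3.08 in lec2-1, against 6.0, 5.34 and 6.39 in WS. The groups did not overlap, and the change was −2.36 ± 0.30 (adjusted p = 3.8e-05). AGL67 (AT1G77950), a MADS-box factor, changed by −0.76 ± 0.30 (adjusted p = 0.060), EEL (AT2G41070), a bZIP factor of late embryogenesis, by −0.56 ± 0.13 and BZIP53 (AT3G62420) by −0.15 ± 0.08.

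Among hormone genes, 3 of 16 auxin genes rose and 1 fell, with a median of −0.15, where 5.10% of all genes rose and 1.32% fell. GH3.3 (AT2G23170) and WES1 (AT4G27260), enzymes that join auxin to amino acids, rose by 3.21 ± 0.18 and 1.98 ± 0.17. GH3.3 had 9.57, 9.85 and 10.13 in lec2-1 and 6.73, 6.66 and 6.53 in WS. IAA18 (AT1G51950) rose by 1.01 ± 0.17, at the 2-fold limit, and was not called after quantile normalization (0.85), after centring on reference genes (1.00), or without lec2-1 replicate 2 (0.97), lec2-1 replicate 3 (0.98) or WS replicate 1 (0.95). YUC4 (AT5G11320), a flavin monooxygenase of auxin synthesis, had 4.28, 3.69 and 3.40 in lec2-1 and 5.61, 5.18 and 4.63 in WS, a change of −1.35 ± 0.26 (adjusted p = 0.0013). The repressor genes IAA31 (AT3G17600) and IAA30 (AT3G62100) changed by −0.95 ± 0.17 and −0.48 ± 0.16. IAA31 passed 2-fold without lec2-1 replicate 1 (−1.10), lec2-1 replicate 3 (−1.04) or WS replicate 2 (−1.03). Of 5 gibberellin genes 1 rose, the receptor gene GID1B (AT3G63010), at 1.19 ± 0.24, a lower bound.

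Of 12 genes of jasmonate and defence 2 rose and 2 fell, where 5.10% of all genes rose and 1.32% fell. THI2.1 (AT1G72260), a thionin, had 12.43, 12.59 and 12.78 in lec2-1, against 3.01, 3.01 and 2.78 in WS. The change of 9.67 ± 0.19 (adjusted p = 3.7e-13) is a lower bound. The defensin gene LCR69 (AT2G02100) rose by 2.53 ± 0.12. The defensin genes LCR67 (AT1G75830) and PDF1.2b (AT2G26020) fell by 3.00 ± 0.32 and 1.50 ± 0.24. LCR67 had 5.29, 5.66 and 5.27 in lec2-1 and 8.72, 9.12 and 7.35 in WS.

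Of 16 measured sugar transport genes, all of the SWEET family, 2 fell and 0 rose, where 1.32% of all genes fell. SWEET11 (AT3G48740), which exports sucrose and helps to feed the embryo, had 9.86, 9.38 and 9.72 in lec2-1, against 12.24, 12.56 and 12.58 in WS. The groups stood apart by a change of −2.81 ± 0.14 (adjusted p = 1.6e-09). AtVEX1 (AT5G62850), also known as SWEET5, fell by 2.10 ± 0.21. SAG29 (AT5G13170), also known as SWEET15, changed by −0.05 ± 0.10.

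Of the genes of growth, 1 of 7 cell cycle, 1 of 6 histone and 1 of 34 cell wall genes were called, with 6.41% of all genes called. PRL (AT4G02060), an MCM helicase subunit, was the 1 of 7 cell cycle genes to rise, at 2.46 ± 0.33, a lower bound, with 4.47 in lec2-1 and 2.00 in WS. HIS1-3 (AT2G18050), a stress-inducible linker histone, was the 1 of 6 histone genes to rise, at 3.89 ± 0.17, while HTB2 (AT5G22880), a core histone, changed by 0.97 ± 0.33 and passed 2-fold without lec2-1 replicate 2 (1.14) or WS replicate 1 (1.41). EXPA20 (AT4G38210), an expansin, was the 1 of 34 cell wall genes to rise, at 1.41 ± 0.17. TRY (AT5G53200), a repressor of trichome fate, was the 1 of 2 measured trichome genes to rise, at 1.31 ± 0.15. The other went the opposite way, by −0.91, and was not called, but it was called lower after quantile normalization. None was called of 3 genes of lipid mobilisation, where ICL (AT3G21720) and SDP1 (AT5G04040) changed by −0.29 ± 0.15 and −0.14 ± 0.12, of 3 cuticle genes, where AT4G13840 and AT3G23840 changed by −0.19 ± 0.19 and 0.07 ± 0.13, or of 10 reference genes, where GAPC2 (AT1G13440) changed by 0.45 ± 0.08 and AT4G26410 by −0.08 ± 0.07. The meristem gene CLV3 (AT2G27250) lay between 2.14 and 2.23 on all 6 arrays.

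Markers of the parts of the seed and fruit moved little, with 1 exception. None of 3 seed coat markers was called, and their summed level ran from 9.24 to 9.60 in lec2-1 and from 9.60 to 9.72 in WS (log2 of the sum). ARA12 (AT5G67360), a subtilase, changed by −0.29 ± 0.10. The peroxidase gene AT3G50990 stayed below 2.8 on every array, and the means of BAN were also under 3 in both genotypes. ARA12 was thus the only seed coat marker that could show a fall. None of 3 endosperm markers was called, and their sum ran from 4.26 to 4.89 in lec2-1 and from 4.25 to 4.33 in WS. AGL62 (AT5G60440) and IKU2 (AT3G19700), of early endosperm, had means of 2.44 and 2.65 in lec2-1 and of 2.53 and 2.81 in WS. With MPC (AT3G19350), all 3 had WS means under 3, so none could show a fall. MPC had 3.81, 2.88 and 4.18 in lec2-1 and 2.88, 2.75 and 2.63 in WS. Its change of 0.87 ± 0.33 (adjusted p = 0.052) was called without lec2-1 replicate 2, at 1.24. Of 2 silique wall markers ALC (AT5G67110), a bHLH factor of fruit opening, rose by 1.57 ± 0.19 and YAB3 (AT4G00180) changed by 0.31 ± 0.11, and their sum ran from 7.63 to 7.85 in lec2-1 and from 7.08 to 7.53 in WS. Whether the make-up of tissues differed between the genotypes, or silique tissue had a part in the rises, was not tested.

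**Figure D3:**
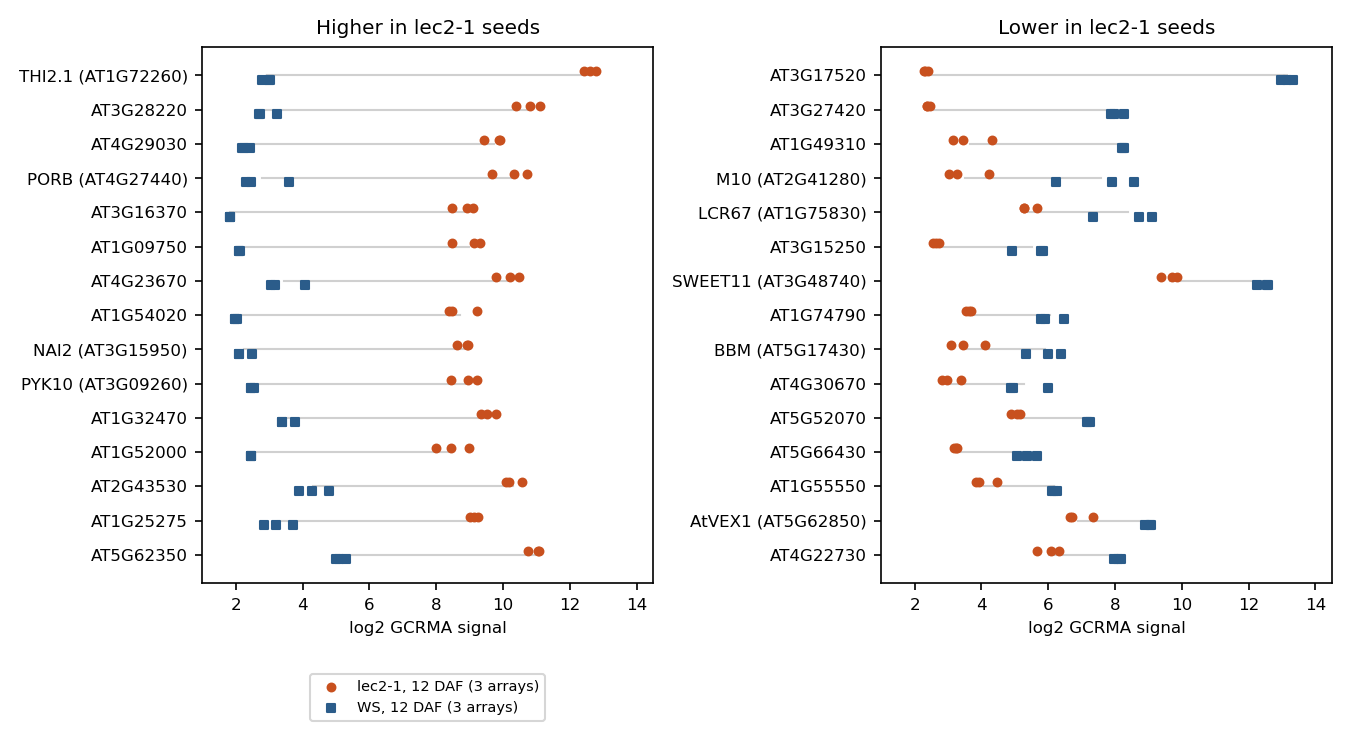
Log2 signal on each array at 12 DAF for the 15 called rises (left panel) and 15 called falls (right panel) of largest fitted change, lec2-1 as orange circles and WS as blue squares, 3 arrays each. A grey line joins the means. The groups do not overlap for any of the 30 genes, as their choice required.

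Beyond the lists, the 15 named rises included those of AT3G28220, of the TRAF-like family, at 7.88 ± 0.25, AT4G29030 at 7.45 ± 0.28, AT3G16370, a GDSL lipase, at 7.01 ± 0.17, AT1G09750, of the aspartic protease family, at 6.87 ± 0.19, AT4G23670, of the MLP (Bet v 1) family, at 6.73 ± 0.29 and AT1G54020, a GDSL lipase, at 6.71 ± 0.40. All of these except AT4G23670 had a WS mean below 3, so that their changes are lower bounds. Measured above that level in both groups were AT2G43530, a defensin-like gene, at 5.96 ± 0.25, AT1G25275 at 5.87 ± 0.21 and AT5G62350, of the invertase and pectin methylesterase inhibitor family, at 5.82 ± 0.13. AT4G29030 had 9.88, 9.43 and 9.91 in lec2-1, against 2.42, 2.19 and 2.25 in WS. Of 1433 probe sets called higher, 326 had a WS mean below 3.

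AT3G27420 was another fall to the bottom of the scale. It had 2.37, 2.46 and 2.37 in lec2-1, against 7.87, 8.28 and 7.96 in WS. The groups stood far apart, and the change of −5.63 ± 0.15 (adjusted p = 2.5e-12) is a lower bound in size. AT1G49310 had 3.16, 4.33 and 3.46 in lec2-1 and 8.26, 8.23 and 8.21 in WS, a change of −4.59 ± 0.22. Further falls were those of AT3G15250 at −2.88 ± 0.17, a lower bound in size, AT1G74790 at −2.43 ± 0.24, AT4G30670 at −2.21 ± 0.23, AT5G52070 at −2.16 ± 0.26, AT5G66430 at −2.14 ± 0.20, AT1G55550, of the kinesin family, at −2.11 ± 0.22 and AT4G22730, a receptor-like kinase gene, at −2.06 ± 0.22. Neither AT3G17520 nor AT3G27420 had a called gene among the 3 nearest measured genes on each side, where 6.41% of all genes were called. Neighbours AT3G17490, AT3G27400, AT3G27410, AT3G27450 and AT3G27473 had means under 3 in both groups, so a fall of these could not be seen. Whether the falls were confined to the 2 genes was not tested. The neighbours of AT3G17520 changed by −0.95 to 0.94 and those of AT3G27420 by −0.18 to 0.29.

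Probe sets without a paired gene also moved. 259640_at averaged 13.92 ± 0.07 in lec2-1 and 2.60 ± 0.22 in WS, a change of 11.32 ± 0.16. 259383_at changed by 8.22 ± 0.17, and both are lower bounds. The falls were those of 250476_at at −4.63 ± 0.13 and 250351_at at −3.10 ± 0.50.

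To ask whether the lec2-1 difference was already there at 8 DAF, the same contrast was fitted on the younger arrays and the difference between ages was tested. At 8 DAF 764 probe sets were called (3.36%), 488 higher (2.15%) and 276 lower (1.21%). The calls of both ages in the same direction numbered 273, which is 35.7% of those at 8 DAF and 15.2% of those at 12 DAF. The difference itself was called for 1967 probe sets (8.65%), 1408 toward higher at 12 DAF (6.19%) and 559 toward lower (2.46%). Of the 1433 probe sets higher at 12 DAF 235 were also higher at 8 DAF, on separate arrays, and 33 were lower there. Of the 362 lower at 12 DAF 38 were also lower at 8 DAF, and 7 were higher there. A difference between ages is given as fitted, and its size is not read where a group mean under 3 enters it, as for PORB, PYK10, NAI2, JAL34, JAL22, JAL23, THI2.1, AT1G09750, AT3G17520, AT3G27420 and M10. The 8 DAF changes given for PYK10, NAI2, JAL34 and AT3G17520 are lower bounds in size.

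**Figure D4:**
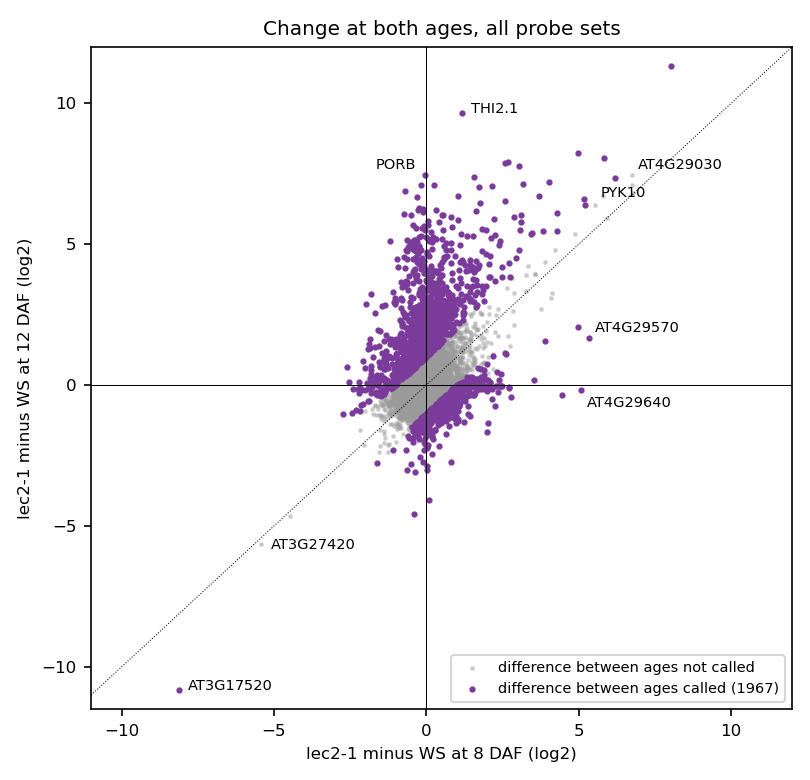
Change of each probe set at 12 DAF (vertical axis) against its change at 8 DAF (horizontal axis), both lec2-1 minus WS in log2, with the line of equal change dotted. Purple points had a called difference between the ages (1967). Many points rise along the vertical axis, with PORB at −0.06 at 8 DAF and 7.45 at 12 DAF, while AT3G17520 and AT3G27420 were low at both ages.

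Most photosystem and Calvin cycle genes were called at the older age alone. None of the 9 photosystem and electron transport genes was called at 8 DAF, and 8 had a called difference between the ages. PSBW averaged 11.40 in lec2-1 and 11.78 in WS at 8 DAF, and 10.81 in lec2-1 and 5.65 in WS at 12 DAF. The difference between ages was 5.54 ± 0.31 (adjusted p = 2.8e-08). LHCB4.1 averaged 12.05 in lec2-1 and 12.30 in WS at 8 DAF, and 11.32 in lec2-1 and 6.40 in WS at 12 DAF. The lec2-1 means of both genes thus lay within 1 log2 unit at the 2 ages, while the WS means lay over 5 apart. LHCB4.3 averaged 10.49 in lec2-1 and 10.94 in WS at 8 DAF, with no called difference between ages (0.15 ± 0.18). PORB averaged 9.58 in lec2-1 and 9.63 in WS at 8 DAF, and its difference between ages was 7.51 ± 0.48. Of 8 chlorophyll synthesis genes 4 had a called difference between ages, where 691 of 13286 genes had one toward higher. The chlorophyll gene CHLI2 was already higher at 8 DAF, by 1.13 ± 0.30, with no called difference between ages (0.96 ± 0.42). All 3 Calvin cycle genes had a called difference, and DFR had 8.05 in lec2-1 and 7.74 in WS at 8 DAF. However, 2 of 8 flavonoid genes were already higher at 8 DAF, where 217 of 13286 genes were. They were UF3GT at 2.06 ± 0.39 and AT4G14090 at 1.72 ± 0.21, the latter a lower bound. Of 7 starch genes 3 were higher at 8 DAF, among them APL3 at 1.54 ± 0.33 and APL4 at 2.18 ± 0.25.

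The ER body list differed within itself in age. PYK10 averaged 8.04 in lec2-1 and 2.52 in WS at 8 DAF, a change of 5.52 ± 0.16, and its difference between ages of 0.86 ± 0.22 was not called. NAI2 and JAL34 changed by 5.16 ± 0.21 and 4.21 ± 0.20 at 8 DAF. JAL22 and JAL23 changed by 0.30 ± 0.25 and 0.04 ± 0.14 at 8 DAF, were not called there, and had called differences between ages of 3.75 ± 0.36 and 3.61 ± 0.20. AT4G29030 and AT4G23670 were also high at 8 DAF, by 6.75 and 5.79, with no called difference. AT1G09750 changed by −0.72 at 8 DAF, and its fitted difference was 7.59 ± 0.27, while that of THI2.1 was 8.50 ± 0.27.

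**Figure D5:**
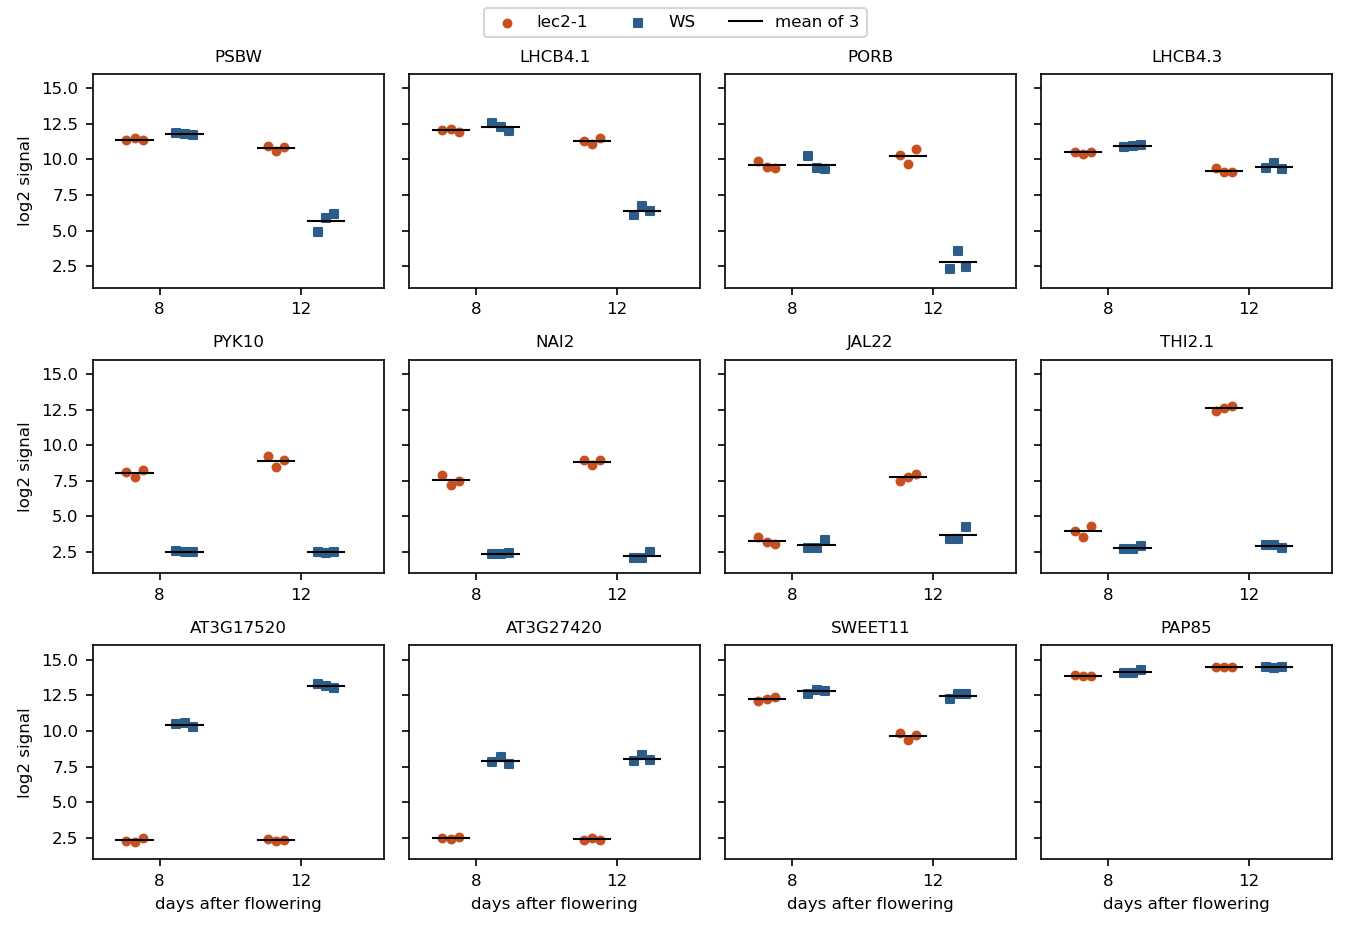
Log2 signal on each array for 12 genes at 8 and 12 days after flowering, lec2-1 (orange circles) to the left of WS (blue squares) at each age, with the mean of 3 arrays as a bar. PSBW, LHCB4.1 and PORB differ by more than 2-fold at 12 DAF alone, PYK10, NAI2, AT3G17520 and AT3G27420 at both ages, and LHCB4.3 and PAP85 stay close.

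Among the falls, AT3G17520 averaged 2.30 in lec2-1 and 10.43 in WS at 8 DAF, a change of −8.12 ± 0.13, and its difference between ages of −2.70 ± 0.19 was called. AT3G27420 averaged 2.47 in lec2-1 and 7.88 in WS at 8 DAF, with no called difference (−0.22 ± 0.21). M10 averaged 2.75 in lec2-1 and 2.65 in WS at 8 DAF, near the bottom of the scale in both, and its difference was −4.17 ± 0.70. SWEET11 averaged 12.26 in lec2-1 and 12.78 in WS at 8 DAF, and its difference was −2.29 ± 0.19. BBM was already lower at 8 DAF, by −1.57 ± 0.30.

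A smaller set was high at the younger age. AT4G29640 and AT4G29570, which encode cytidine deaminases, averaged 7.69 and 8.26 in lec2-1 and 2.62 and 2.92 in WS at 8 DAF. At 12 DAF AT4G29640 lay between 2.65 and 2.96 on all arrays, and AT4G29570 changed by 1.68 ± 0.24, a lower bound. AT4G24110 changed direction, with 2.02 at 8 DAF and −1.36 at 12 DAF, both called.

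A direct contrast of the mutants at 12 DAF gave 2994 called probe sets (13.2%), of which 1361 were higher in lec2-1 than in lec1-1 (5.98%) and 1633 were lower (7.18%). The share of higher calls was 45.5%, and 26.4% after centring on the reference genes (905 higher, 2520 lower), which moved the median change of all probe sets to −0.22, from 0.03. The actin 3' signal exceeded the 5' signal by 0.356 ± 0.082 in lec2-1 and by 0.825 ± 0.021 in lec1-1 (SD, n = 3 each), and its part was not tested.

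Many genes of storage and oil were called higher in lec2-1 seeds than in lec1-1 seeds. Of the measured members 4 of 7 storage globulin genes, 5 of 7 oil body genes and 7 of 8 fatty acid and oil genes were called higher. So were 4 of 8 protein storage vacuole genes. Over all genes 733 of 13286 were called higher and 735 lower. After centring the numbers of the 4 lists were 3, 3, 5 and 2. The lipid droplet gene AT2G47780 was lower in lec2-1, by −2.92 ± 0.21. OLEO3 had 14.02, 13.92 and 13.84 in lec2-1, against 11.34, 11.59 and 11.62 in lec1-1, a difference of 2.41 ± 0.09. AT4G36700 and FaTA differed by 2.78 ± 0.09 and 3.15 ± 0.16. FaTA averaged 8.02 in lec2-1 and 4.86 in lec1-1, with 9.18 in WS. AGL67 differed by 3.05 ± 0.30 and LHCB4.3 by 2.39 ± 0.13.

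Among ER body genes 5 of 8 were lower in lec2-1 than in lec1-1 and 1 was higher. Over all genes 735 of 13286 were lower and 733 higher. PYK10 averaged 8.87 in lec2-1 and 12.18 in lec1-1, a difference of −3.31 ± 0.16, and JAL34 differed by −3.21 ± 0.20. JAL23 went the other way, by 2.13 ± 0.14. Of the photosystem genes 1 of 9 was lower in lec2-1 (LHCB4.2, at −1.13 ± 0.23) and 1 was higher (LHCB4.3), and PSBW differed by −0.43 with an adjusted p of 0.16. Of 8 chlorophyll genes 3 were lower, and 6 after centring.

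LEA genes had 5 of 37 higher and 9 of 37 lower in lec2-1 than in lec1-1, and 1 higher and 11 lower after centring. Before centring 733 of 13286 genes were higher and 735 lower. AT3G17520 averaged 2.33 in lec2-1 and 12.35 in lec1-1, a difference of −10.02 ± 0.13, and AT3G27420 averaged 2.40 in lec2-1 and 6.97 in lec1-1, a difference of −4.57 ± 0.15. Both are lower bounds in size, since these genes were at the bottom of the scale in lec2-1 while lec1-1 lay nearer to WS. Further differences toward lower were those of AT5G38020, a methyltransferase family gene, at −5.48 ± 0.34, AT3G28310 at −5.12 ± 0.24, a lower bound in size, and the wall enzyme gene XTH19 (AT4G30290) at −4.61 ± 0.26. AT5G38020 had 3.85, 2.20 and 4.12 in lec2-1, with 1 array as low as WS.

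Genes far higher in lec2-1 than in lec1-1 included the GDSL lipase genes AT5G22810 at 6.48 ± 0.14, a lower bound, and AT1G71691 at 5.45 ± 0.26, and AT3G25160, AT4G19380 and AT2G19320 at 4.99 ± 0.18, 4.60 ± 0.18 and 4.58 ± 0.20. AT5G22810 averaged 9.38 in lec2-1, 2.90 in lec1-1 and 11.26 in WS, and its change against WS was −1.88 ± 0.14.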

How the data were processed

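Seed RNA was labelled as biotinylated cRNA from 2 µg of total RNA for Affymetrix arrays, per the labels' protocols, and the table holds 22810 probe sets. The deposited values are log2 signals made by the authors, for which the submitters' processing notes name GCRMA and GCOS 1.3. No source used here gives the GCRMA version or says if GCRMA ran on all 30 arrays at once. The values were used as deposited, without the 64 control probe sets. GCRMA equalises the distributions of the arrays it processes together, so changes are relative to the other probe sets.

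Of 22746 probe sets, 13513 were paired with 1 gene by the platform annotation, 13436 of them with a gene of the TAIR10.1 table, 503 with several genes and 8730 with none. A gene with several probe sets was represented by that of highest mean signal over the 18 arrays. No sequence or genome was used.

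Linear models with 1 mean per group were fitted over the 18 arrays of the WS background with limma 3.58.1 in R 4.3.3 (lmFit, contrasts, eBayes without trend), and p-values were adjusted by Benjamini-Hochberg over 22746 probe sets. The fit was tested on simulated data. The contrasts were lec2-1 minus WS at 12 DAF, the same at 8 DAF, the difference of both, and lec2-1 minus lec1-1 at 12 DAF. The contrasts share arrays (both 12 DAF contrasts share the lec2-1 arrays), so no overlap between those was tested.

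Members and the 30 gene lists were chosen with earlier results of these data known. The lists, by gene code or symbol, held 1268 planned genes, and 27 lists had measured genes, 236 distinct ones. After their values were seen, 14 false name matches were left out. Lists for raffinose oligosaccharides, small heat shock proteins and abscisic acid had 0 measured genes. The text names the 15 largest called rises and 15 largest called falls with non-overlapping arrays and a higher group mean at least at the median of all probe sets, up to 5 called genes per list and direction (or the 2 of highest mean where none was called), and the 5 largest called each way for the age difference and for lec1-1. Further list members, given as examples, were chosen after their values were seen.

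Alternatives were quantile normalization, centring on 10 reference genes, single-gene probe sets, a filter at the 40th percentile of signal, only the compared arrays, all 30 arrays, a block on replicate number, eBayes with trend and robust settings, an adjusted p under 0.01, calls with no fold minimum, and each array left out in turn. Figures were drawn with matplotlib.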

Additional observations from a re-analysis of the deposited data

Results flagged for a closer look

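Of 134 genes named, 66 had a lec2-1 minus WS change that differed between 12 and 8 DAF in the test of the difference itself (limma, adjusted p below 0.05 and at least 2-fold), 49 toward higher at 12 DAF and 17 toward lower. Over all probe sets the difference was called for 8.65%. Many of the 134 were named for a large change at 12 DAF or between ages, so the 2 shares are not comparable. The values are the change at 12 DAF minus that at 8 DAF, in log2 units as fitted, and no cause was tested. Where a group mean under 3 enters a difference, as for 8.50 of THI2.1, its size is not read. The adjusted p of COR15A was 0.0493, next to the threshold.

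The differences of photosystem and electron transport genes were PSBW at 5.54, PSAN at 5.37, ATPC1 at 5.21, LHCB4.1 at 5.17, LHCB4.2 at 5.38, PSAE-1 at 4.98, PSBY at 2.22 and PGRL1B at 1.17. Among Calvin cycle, chlorophyll and photorespiration genes they were RCA at 3.37, PRK at 3.15, SBPASE at 2.42, PORB at 7.51, CHLM at 4.47, HEME2 at 2.21, HEME1 at 1.54 and AT1G32470 at 5.49.

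In the ER body and lectin group the differences were NAI2 at 1.45, NAI1 at 1.34, JAL22 at 3.75, JAL23 at 3.61 and AT1G52000 at 5.51.

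For flavonoid and starch genes they were DFR at 4.86, UF3GT at 2.22, AT4G14090 at 2.55, AT5MAT at 2.76, DPE1 at 1.30, PWD (AT5G26570) at 1.38 and APL4 at −1.14.

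LEA, storage and lipid droplet genes had AT3G17520 at −2.70, M10 at −4.17, AT3G22490 at −1.58, M17 at −1.62, DI21 at 1.44, COR15A at 1.79, AT1G54410 at 1.50 and COR15B at 1.45. Further ones of this group were AT2G44060 at 1.34, LEA at 1.21, AT1G07750 at 1.16 and AT2G47780 at 3.74.

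Defence, hormone, chromatin, wall, transport and silique genes had THI2.1 at 8.50, LCR69 at 2.88, LCR67 at −3.01, PDF1.2b at −1.42, GH3.3 at 1.63, HIS1-3 at 3.40, EXPA20 at 1.15 and SWEET11 at −2.29. A further one was YAB3 at 1.22.

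Other genes with more positive values at 12 DAF were AT3G28220 at 5.30, AT3G16370 at 5.28, AT1G09750 at 7.59, AT1G54020 at 5.67, AT2G43530 at 5.14, AT1G25275 at 4.85, AT5G62350 at 5.76 and AT5G48490 at 5.77.

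Other genes with negative differences were AT1G49310 at −4.17, AT3G15250 at −2.89, AT1G74790 at −2.62, AT4G30670 at −2.22, AT5G66430 at −2.20, AT4G29640 at −5.24, AT4G29570 at −3.66 and AT4G24110 at −3.38. A further one was AT5G22810 at −1.46. AT4G29640 and AT4G29570 did not fall at 12 DAF, with changes of −0.17 and 1.68 there and of 5.07 and 5.34 at 8 DAF.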

How the results depend on the processing

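The counts of called probe sets stayed within 1.5 times under quantile normalization, centring, the signal filter, the compared arrays alone, all 30 arrays, trended variances and the stricter p. With single-gene probe sets alone, where fewer were tested, they were 852 for lec2-1 against WS at 12 DAF, 357 at 8 DAF, 955 for the difference between ages and 1466 against lec1-1. With no fold minimum they were 8537, 3170, 4908 and 8218 in the same order, and at 12 DAF 2871 of the 8537 were higher and 5666 lower. Leaving out 1 array gave 1665 to 1934, 701 to 812, 1841 to 1993 and 2802 to 3240. Same-numbered lec2-1 and WS arrays at 12 DAF had deviations correlated at −0.04, −0.03 and 0.05, so the numbers were not read as pairs. With the replicate block the calls numbered 1792 at 12 DAF, of which 1791 were shared, 761 at 8 DAF, 1915 for the difference and 2993 against lec1-1. After quantile normalization 2 fatty acid genes and 7 LEA genes were lower in lec2-1 than in WS at 12 DAF, 1 trichome gene was lower too, and 2 auxin genes were higher after either scaling. The other list counts of that comparison were as given under both scalings. Single genes were recomputed for the 12 DAF change from WS alone, 122 of the 134 named. None of the 122 changed direction as a call, and those that crossed the threshold have their values beside the gene. Calls of single genes at 8 DAF, between ages and against lec1-1 were not recomputed. Signal near the array minimum limits the changes read as bounds, and signal near the maximum may limit those of storage genes.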
